A study of Drosophila melanogaster with 4 samples.

Results

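Isolated TBP peaks are the sites of the TATA-binding protein (TBP) that stood alone on the chromosome arms of Drosophila melanogaster embryos, with no other listed peak within 20 kb on either side. A peak was taken as isolated when it lay on 2L, 2R, 3L, 3R, 4 or X, was narrower than 2000 bp, had a gap of at least 20000 bp to the listed peak before it and to the one after it, and was neither the first nor the last peak of its arm. The rule found 374 isolated peaks among 7303 arm peaks and 7769 peaks in all. They made up 5.12% of the arm peaks, a share that the rule itself fixes and from which nothing is read.

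TBP was mapped by chromatin immunoprecipitation and sequencing (ChIP-seq), which enriches DNA cross-linked to a protein with an antibody. The series holds 2 TBP ChIP libraries, made with a crude rabbit polyclonal serum against Drosophila TBP, and 2 libraries of input DNA. By the labels all 4 came from the strain Exd-GFP-13T at the stage Embryo 0-8 (hours, per the titles), with unknown sex and the genotype w; PBac{y[+]-attP-3B}VK00033. All, the inputs included, carry a transgene in which GFP takes the place of the stop codon in the genomic coding region of exd (extradenticle, a homeodomain protein). The extraction text instead describes y; bw cn sp flies and an 8 to 16 h collection, and which of these applies is not known. Whole embryos were used, so a peak can come from any mixture of cell types.

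TBP binds the TATA box and bends the DNA there. As a part of TFIID it helps to place RNA polymerase II at core promoters, many of which in flies have no TATA box and use other elements such as the initiator. Flies also have TBP-related factors, of which TRF1 serves RNA polymerase III genes. An isolated peak is a site for which the list shows no second TBP peak nearby.

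A single peak list, called by the authors with MACS per the file headers, was analysed, so no peak has a value per library or a replicate error, and the read depth is unknown. The score deposited for each peak has no stated scale. Position, width and score all come from that one list and the rule uses the first and the second, so every value below is a description with no test. Positions are those of FlyBase release 5. The gene table used here belongs to release 6, no coordinates were converted, and no isolated peak was assigned to a gene or shown with its sequence.

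Isolated peaks were of ordinary strength. Their scores ran from 7.66 to 190.26 with a median of 29.9, and the middle 50% lay between 17.7 and 57.8. The other 6929 arm peaks ran from 6 to 400.63 with a median of 28.4, so the ratio of medians was 1.05. Of the isolated peaks, 205 (54.8%) scored at or above the median of all arm peaks.

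With the width limit applied to both sets, isolated peaks scored somewhat higher. The other 6283 arm peaks under 2000 bp had a median score of 25.3, which gives a ratio of 1.18. The difference was seen among low scores and at the 90th percentile. The highest score, however, was 190.26 for isolated peaks and 296.55 for the others. Scores below 20 were held by 30.5% of isolated peaks and 40.2% of the others, and scores below 10 by 6.15% and 10.3%. At the 90th percentile the score was 86.0 for isolated peaks and 74.4 for the others. When peaks less than 1 kb apart were first merged into 1 region with the higher score, the ratio of medians was 1.01. The size of this difference thus depends on how close companions are counted. Of the others, the 2759 within 1 kb of another peak had a median score of 18.9. Those at 1 to 5 kb and at 5 to 20 kb had medians of 30.5 and 31.3, slightly above that of isolated peaks.

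In width, isolated peaks resembled other peaks under the same limit. They measured 201 to 1988 bp with a median of 652 bp, against 660 bp for the others (ratio 0.99). Peaks under 500 bp made up 36.9% of isolated peaks (138) and 37.3% of the others. Peaks of 1000 bp or more were 24.9% (93) and 30.5%. When peaks less than 1 kb apart were first merged, the ratio of median widths was 0.85. At the lower limit of the list, 201 bp, stood 4 isolated peaks. Together the isolated peaks covered 277 kb, or 3.96% of the sequence under arm peaks.

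**Figure D1:**
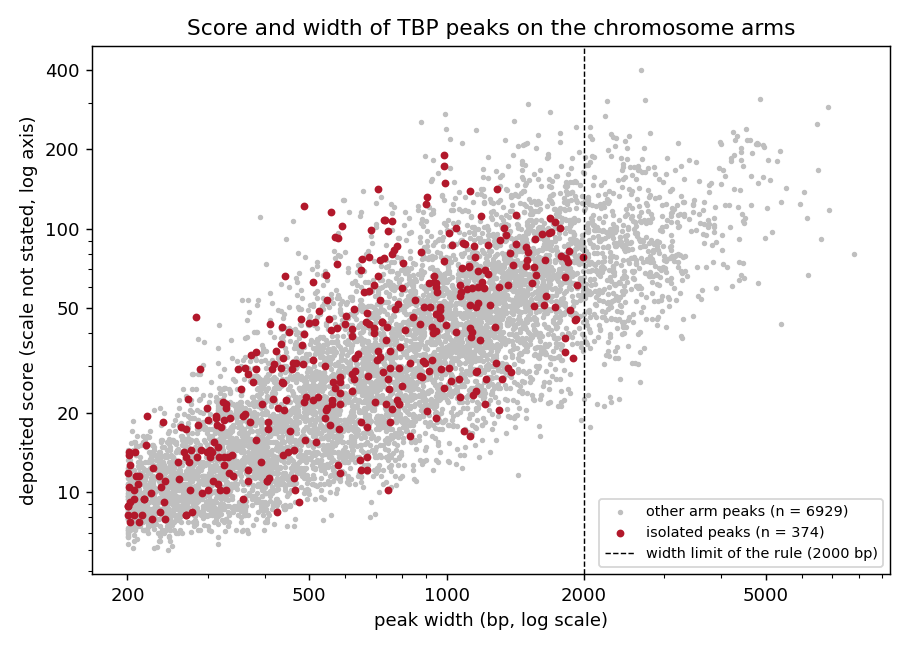
Deposited score (vertical, log axis, scale not stated) against peak width in bp (horizontal, log axis) for 374 isolated peaks (red) and 6929 other arm peaks (grey); each point is 1 peak and the dashed line is the 2000 bp limit of the rule. Red points run through the cloud from 7.66 to 190.26, and some of those between 400 and 1000 bp lie near its upper edge.

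Wider peaks scored higher among isolated peaks as they did elsewhere. Spearman's rho of score and width was 0.73 across the 374 isolated peaks and 0.82 across the 6283 others under 2000 bp. On log values Pearson's r was 0.74 and 0.81. These correlations are across peaks of 1 list that share libraries and calling.

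For their width, isolated peaks carried more score. In all 7 width classes the median score of isolated peaks was above that of the other arm peaks, by a ratio between 1.07 and 1.36. The ratio was largest from 400 to 499 bp, where 40 isolated peaks had a median of 24.5 and 586 others 18.0. From 500 to 699 bp the medians were 32.2 and 23.7, and from 700 to 999 bp 44.3 and 33.9. In the widest class, 1500 to 1999 bp, 30 isolated peaks had a median of 73.2 against 68.3 for 645 others.

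Much of that pattern was shared with peaks that stood less far apart. Peaks whose nearest neighbour was under 1 kb away had the lowest median score in each of the 7 width classes. Peaks 5 to 20 kb from their nearest neighbour came close to isolated ones: isolated medians were higher in 5 of the 7 classes, with ratios from 0.97 to 1.20. In the class from 200 to 299 bp the medians were 11.4 for isolated peaks, 11.5 for those 5 to 20 kb from a neighbour and 9.89 for those within 1 kb of one.

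**Figure D2:**
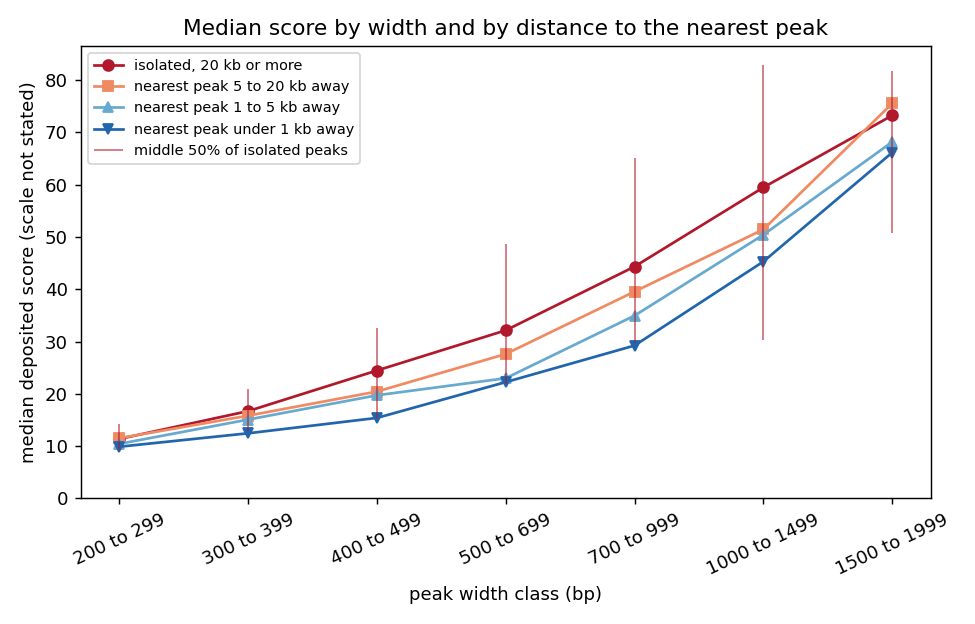
Median deposited score (vertical, scale not stated) in 7 classes of peak width in bp (horizontal) for arm peaks grouped by the distance to their nearest peak; red bars span the middle 50% of isolated peaks in each class. Blue triangles pointing down, for peaks within 1 kb of another, are lowest in every class, and red circles are highest in the 5 classes from 300 to 1499 bp.

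Beyond 1 kb, median score differed little from one class of distance to the next, while median width was largest at 1 to 5 kb. Among arm peaks under 2000 bp, the 2759 within 1 kb of another had a median score of 18.9 and a median width of 550 bp. The median score was 30.5 for 2169 peaks at 1 to 5 kb and 31.3 for 1343 peaks at 5 to 20 kb. It was 30.1 for the 301 isolated peaks at 20 to 50 kb and 29.2 for the 73 at 50 kb or more. Median widths in these last 4 classes were 782, 681, 648 and 668 bp. Within the isolated peaks, score and nearest gap had a Spearman's rho of -0.03 and, on log values, a Pearson's r of -0.03 (374 peaks), and width and nearest gap a rho of -0.02.

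The share of peaks that stood alone was lowest among the weakest. When all arm peaks were divided into 5 parts of about equal number by score, 3.96% of the lowest part (scores below 12.95) were isolated. The other parts had shares of 5.18%, 5.48%, 5.75% and 5.20%, in order of rising score. In the lowest part 62.7% of peaks had a neighbour within 1 kb, against 31.1% to 42.9% in the others. The fourth and the highest part lose isolated peaks to the width limit: without it, the share was 6.22% in each.

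Of the 100 highest-scoring arm peaks, 2 met the rule, against 5.12% of all arm peaks. Without the width limit 5 of the 100 did, against 5.42% of all. The strongest isolated peak lay on 3L at 18432469 to 18433455, scored 190.26 in 987 bp, and had peak-free gaps of 35.8 kb and 20.0 kb. Next was X 3704915 to 3705899, with a score of 173.46 in 985 bp and gaps of 29.6 kb and 23.6 kb. The 3L peak was also, with its right-hand neighbour, the member closest to the 20 kb limit.

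The following 3 isolated peaks by score were close to each other in strength. They lay at 3L 2466531 to 2467522 (score 148.44, 992 bp), 2L 19008448 to 19009738 (141.41, 1291 bp) and 3R 976196 to 976901 (141.31, 706 bp). Sixth was 3R 13946975 to 13948101 with a score of 139.19, which at 41.8 kb had the largest nearest gap of the 10 strongest. The other 9 had nearest gaps between 20.0 and 27.1 kb.

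Ranks 9 and 10 held the narrowest of these strong isolated peaks, and ranks 7 and 8 measured about 900 bp. At 2R 2948749 to 2949653 the score was 131.53 in 905 bp, and at X 17400990 to 17401889 it was 123.99 in 900 bp. The 3R peak at 19685154 to 19685639 reached 121.94 in only 486 bp, and the 3L peak at 10239385 to 10239943 reached 115.27 in 559 bp. For scale, the median of isolated peaks between 400 and 499 bp was 24.5.

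Strong yet narrow peaks were more frequent among isolated peaks than among the others. Of 281 isolated peaks under 1000 bp, 12 (4.27%, 95% exact Clopper-Pearson interval 2.23 to 7.34) scored 100 or more. Of 4365 other arm peaks under 1000 bp, 43 (0.99%, 0.71 to 1.32) did. The share was 0.39% where the nearest peak was under 1 kb away. It was 1.59% (1.00 to 2.40) at 1 to 5 kb and 1.40% (0.75 to 2.38) at 5 to 20 kb. The intervals at 1 to 5 kb and at 5 to 20 kb overlap that of isolated peaks. With a minimum gap of 30 kb the share of isolated peaks was 1.48% (2 of 135, 0.18 to 5.25) against 1.17% for the other peaks. The difference was thus small there, but the interval also holds 4.27%. At 50 kb it was 3.57% (2 of 56, 0.44 to 12.3) against 1.15%. Both of these limits leave too few strong peaks to give an order, so whether the difference holds at larger gaps is not known. The limits of 100 and 1000 bp were chosen after the scores had been seen, and the intervals cover counting error only and treat peaks as independent. Over all widths below 2000 bp the shares scoring 100 or more were 5.61% (21 isolated peaks) and 4.41%.

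At the weak end, the lowest scores belonged to narrow peaks on 2L, 3L and X. The lowest, 7.66, was shared by 2L 12366107 to 12366309 (203 bp) and X 12381810 to 12382021 (212 bp). Next, at 7.89, came 2L 2724578 to 2724819 (242 bp) and 3L 7774888 to 7775113 (226 bp), and then 2L 3748725 to 3748993 (269 bp), 1 of 5 peaks tied at 8.13. In all 23 isolated peaks scored below 10. The first of those named had a gap of 193 kb before it and 58.3 kb after it.

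The widest isolated peaks were not among the strongest. At 3L 7427076 to 7429063 a peak of 1988 bp scored 77.84, and at X 19191878 to 19193811 one of 1934 bp scored 61.08. Next was 2L 3301841 to 3303763 (1923 bp, score 45.27), with 129 kb and 68.8 kb free of peaks beside it. The next 7 were between 1819 and 1915 bp wide and scored between 32.13 and 81.96. Of the 10 widest, none was among the 10 strongest.

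The 10 isolated peaks with the emptiest surroundings scored between 9.89 and 81.37. The median distance to the nearest peak was 29.6 kb, and 194 of the 374 isolated peaks (51.9%) had one within 30 kb. At 50 kb or more stood 73 (19.5%), and at 100 kb or more 14. The median of the larger of the gaps on either side was 63.8 kb.

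A pair of neighbouring isolated peaks on 3L shared the largest nearest gap, 203 kb. The first, at 24020829 to 24021968, scored 23.36, and the second, at 24224604 to 24224922, scored 10.15. The third most distant, 2L 16049634 to 16050310, scored 57.89 and had 278 kb before it and 201 kb after it. The fourth, 2L 17963189 to 17963730, scored 19.04 with a nearest gap of 174 kb.

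The remaining 6 of the 10 most distant peaks lay on 2R, 3L, 3R and X. At 2R 17759176 to 17759627 the nearest gap was 151 kb and the score 40.58. At 3L 4975813 to 4976691 they were 135 kb and 81.37, the highest score of the 10. The 3L peak at 23573531 to 23573821 had the lowest, 9.89, with a nearest gap of 134 kb. The others were 3R 22014161 to 22014735 (129 kb, score 41.98), X 10489554 to 10490550 (116 kb, 42.92) and 3R 3189592 to 3190338 (108 kb, 24.5).

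Within the range that the rule leaves, the gaps on either side of an isolated peak showed little relation. Only gaps of at least 20 kb enter on both sides, so the values say nothing of gaps between arm peaks in general. Spearman's rho between them was 0.02 and, on log values, Pearson's r was 0.06 (374 peaks, some of which share a gap). The larger gap was at least 2 times the smaller in 156 peaks (41.7%). The smaller gap lay on the low-coordinate side in 197.

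**Figure D3:**
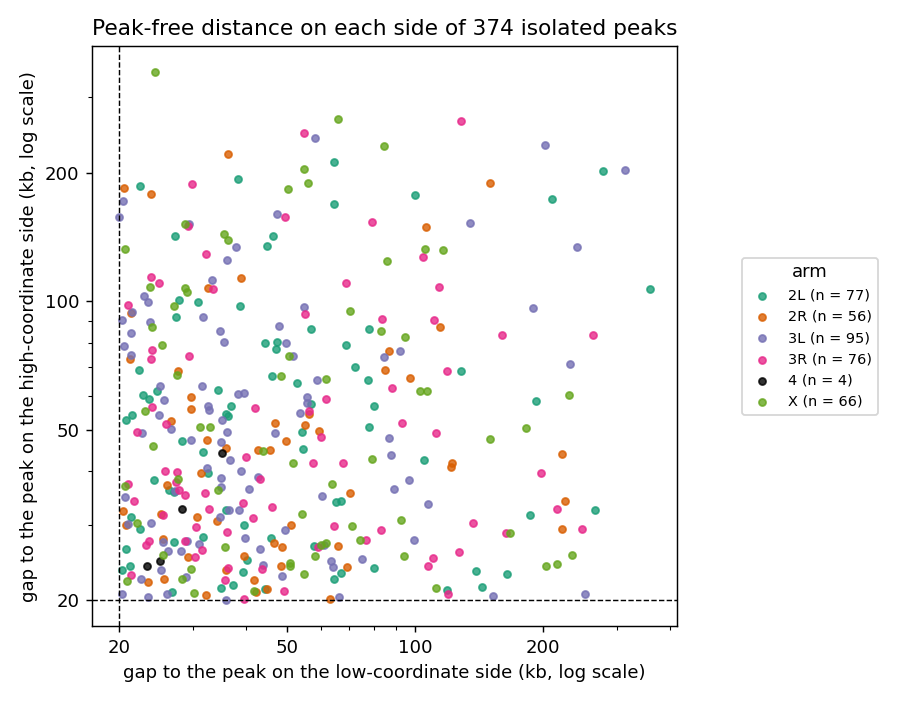
Gap in kb to the peak on the low-coordinate side (horizontal, log scale) and on the high-coordinate side (vertical, log scale) of each of 374 isolated peaks, coloured by arm; dashed lines mark the 20 kb limit. Points crowd toward the limit on both axes, where the median nearest gap was 29.6 kb, and no diagonal trend is visible (rho 0.02).

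By the rule, each isolated peak stood in a stretch with at least 20 kb free on either side. The stretches from the neighbour on one side to the neighbour on the other covered 40.5 Mb, with overlapping stretches counted once. That is 33.8% of the 120 Mb that the listed peaks of the arms span. The rule sets a least length for each stretch, so nothing is read from this coverage. Of 218 gaps of at least 100 kb between arm peaks, 107 (49.1%) had an isolated peak at 1 end or both. Among these gaps, 12 ran from one isolated peak to another. Of all 1431 gaps of at least 20 kb, 638 (44.6%) had an isolated peak at 1 end or both. The share at 100 kb was close to that, and nothing is read from it. Within 100 kb on either side, isolated peaks had a median of 7 other peaks (0 to 27), and the other arm peaks a median of 16 (0 to 48). The rule on spacing lowers that number by its construction.

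Some isolated peaks followed each other. Of 748 neighbour places (2 for each isolated peak), 220 (29.4%) were held by another isolated peak. The 374 peaks formed 264 runs: 191 stood between peaks that were not isolated, 45 runs held 2, 21 held 3, 5 held 4 and 2 held 5. Peaks in runs of 2 or more were thus 48.9% of the total. Adjacent isolated peaks share a gap that already meets the limit, and 19.6% of all gaps between arm peaks were 20 kb or more, so the spacing that the rule uses sets part of these counts and nothing is read from them.

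Both runs of 5 were on 2L. The run from 20148309 to 20311867 spanned 164 kb and had scores of 107.41, 21.88, 10.96, 13.25 and 86.75 along the arm. The run from 22659293 to 22875333 spanned 216 kb and had scores of 18.75, 9.36, 33.86, 13.55 and 27.62. The highest scores of the first run stood at its ends, whereas none in the second run exceeded 33.86. The runs were picked out by length after the positions had been seen.

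Runs of 4 lay on 2L, 3L, 3R and X. The longest in sequence, 379 kb, was on 3R from 22014161 to 22392924, with scores of 41.98, 12.08, 59.48 and 59.48. On 3L, the run from 2438778 to 2554698 held a peak scoring 148.44 beside scores of 17.68, 14.15 and 76.11. On another stretch of 3L, from 12565293 to 12687392, the scores were 30.89, 41.51, 59.48 and 79.02. The run on 2L from 9205342 to 9396841 had scores of 10.15 to 40.11, and that on X from 2683645 to 2993492 scores of 13.85 to 111.98.

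Where the neighbour was not itself isolated, it was similar in median score to the isolated peaks, and the next peak on its far side was close. These 528 neighbour places had a median score of 32.6 and a median width of 764 bp. Beyond the neighbour, the median gap to the next peak was 3324 bp (524 gaps), against 4584 bp over all 7297 gaps between arm peaks. That gap was under 1 kb in 29.8% of cases and in 25.1% of all gaps. The rule itself shortens it, since a neighbour under 2000 bp with 20 kb free on both sides would count as isolated. An isolated peak scored above both its neighbours in 33.2% of cases (124 peaks), and at or below both in as many. Among the other arm peaks under 2000 bp that had 2 neighbours, 29.6% scored above both.

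The share of peaks that stood alone ranged from 3.70% to 6.62% over the arms. On 3L 95 of 1436 peaks (6.62%, 95% exact Clopper-Pearson interval 5.39 to 8.03) were isolated, and on 2L 77 of 1349 (5.71%, 4.53 to 7.08). X had 66 of 1179 (5.60%, 4.36 to 7.07) and 3R 76 of 1757 (4.33%, 3.42 to 5.38). The lowest shares were on 2R, with 56 of 1474 (3.80%, 2.88 to 4.91), and on chromosome 4, with 4 of 108 (3.70%, 1.02 to 9.21). These intervals cover counting error only and treat peaks as independent. Adjacent peaks share a gap that the rule uses, so the intervals give no tested order of the arms. All listed peaks together numbered 69.8 per Mb on 2R, 83.9 on chromosome 4, 58.8 on 3L and 52.7 on X; the part of density in these shares was not tested.

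Per Mb of arm, 3L held 3.89 isolated peaks, 2L 3.36, chromosome 4 3.11, X 2.95, 3R 2.72 and 2R 2.65. X held 17.6% of isolated peaks and 16.1% of all arm peaks. Arm 3L held 25.4% and 19.7%, and 2R 15.0% and 20.2%.

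**Figure D4:**
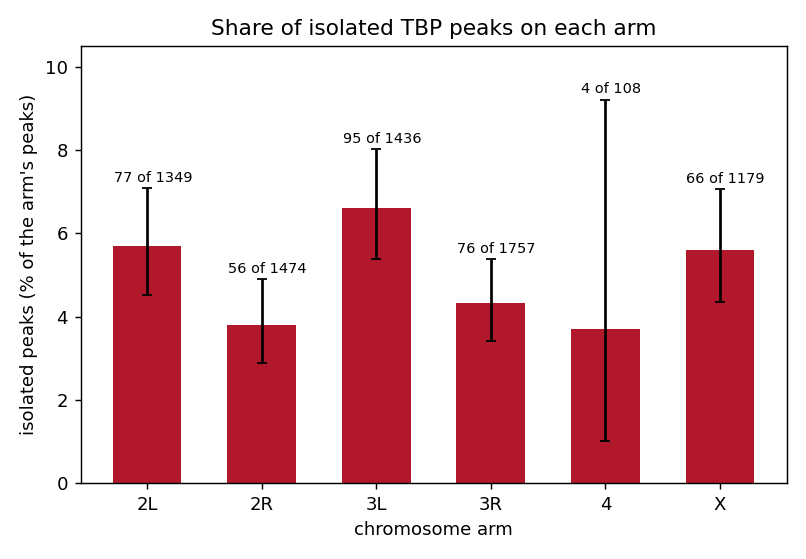
Isolated peaks as a percentage of all listed peaks (vertical) on each chromosome arm (horizontal); bars start at 0, error bars are 95% exact Clopper-Pearson intervals for counting error only, and the counts stand above them. Arm 3L is highest at 6.62% and chromosome 4, with 4 isolated peaks and the longest error bar, lowest at 3.70%.

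The median score of isolated peaks was highest on 3R and 2R. It was 42.2 on 3R (95% order-statistic interval 24.9 to 51.2) and 36.1 on 2R (27.2 to 49.2). Other peaks under 2000 bp on the same arms had medians of 26.2 and 25.3. The median of isolated peaks was 29.2 on 2L (21.9 to 44.3), 29.2 on X (23.7 to 40.1) and 26.8 on 3L (21.5 to 32.2). Other peaks under 2000 bp on 2L, X and 3L had medians of 24.7, 25.3 and 25.4. On 3R the middle 50% spread from 16.8 to 66.1. These intervals treat peaks as independent, overlap among the long arms, and give no tested order of the arms.

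Each arm had strong and weak isolated peaks, chromosome 4 excepted. On the 5 long arms the lowest scores were between 7.66 and 10.15 and the highest between 131.53 and 190.26. Isolated peaks scoring 100 or more numbered 6 on 3L, 4 each on 2L, 3R and X, and 3 on 2R. The strongest isolated peak of chromosome 4, at 282134 to 283050, scored 62.15 in 917 bp, and the 4 on that chromosome had a median of 17.8. By width, the median was largest on 2R (757 bp) and 3R (738 bp) and smallest on X (522 bp).

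Isolated peaks were spread along the long arms, with a higher share in the part next to the centromere than in the part next to the telomere. With each of the 5 long arms divided into 10 equal parts over the span of its peaks, 8.09% of peaks (41 of 507) in the part next to the centromere were isolated. In the part next to the telomere 3.01% were (25 of 831). The 8 parts between had shares from 3.59% to 6.85% with no steady trend. They held 29 to 48 isolated peaks each, so the number was not largest next to the centromere. At the centromere side there were also fewer peaks in all, so the number of isolated peaks differed less than their share.

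The shares on single arms varied. In the centromere-side part 3L had 12 isolated peaks of 52 (23.1%) and X 6 of 43 (14.0%). The same part of 2L had 9 of 130 (6.92%), that of 2R 6 of 85 (7.06%) and that of 3R 8 of 197 (4.06%). At the telomere side 2L had 4 of 159 (2.52%), 2R 3 of 167 (1.80%), 3L 7 of 194 (3.61%) and X 3 of 160 (1.88%). Arm 3R, with 8 of 151 (5.30%), had as many isolated peaks there as at its centromere side. Median scores of isolated peaks were 26.8 in both end parts.

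**Figure D5:**
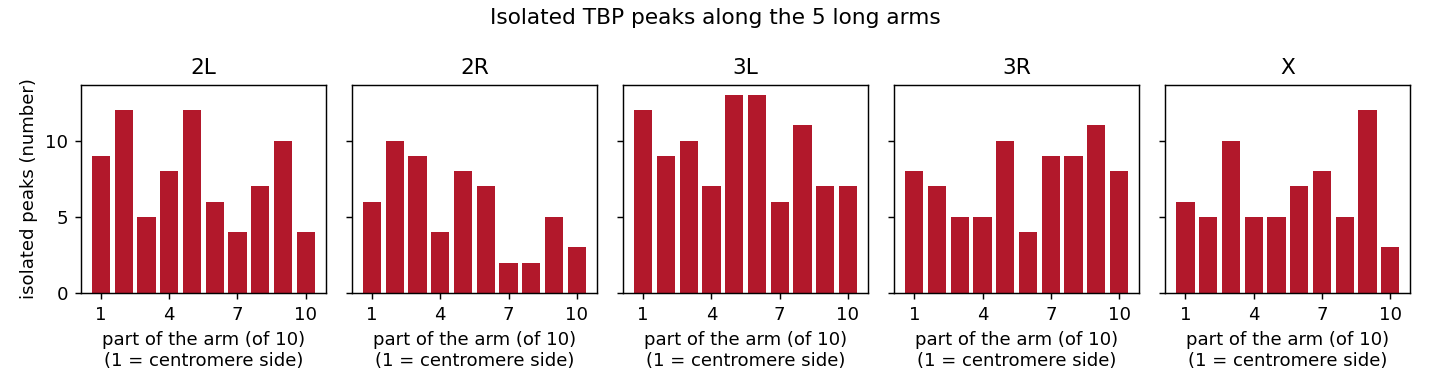
Number of isolated peaks (vertical) in each of 10 equal parts of the 5 long arms (horizontal, part 1 at the centromere side and 10 at the telomere side, over the span of the arm's peaks). Counts run from 2 to 13: 3L has 12 in its centromere-side part, and 2R has 2 in its parts 7 and 8.

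Scores of peaks just inside and just outside the limit of 20 kb covered overlapping ranges. The 5 closest inside had nearest gaps of 20032 bp (2 adjacent peaks on 3L), 20092, 20118 and 20327 bp. Their scores, in that order, were 190.26, 20.44, 10.15, 45.3 and 10.96. The 5 closest outside had nearest gaps of 19979 bp, 19860 bp (2 adjacent peaks on 3L), 19789 and 19692 bp. Their scores were 36.04, 40.11, 12.66, 18.62 and 79.61. Over the wider bands, 170 peaks at 15 to 20 kb had a median score of 29.4 and 113 at 20 to 25 kb one of 30.9, with median widths of 610 and 709 bp.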

How the data were processed

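TBP ChIP and input DNA, with 2 samples each numbered by their titles, are represented by 1 series-wide peak list. It is, per the file headers, GFF version 3 on FlyBase release 5, and its source field names MACS. BWA, MACS2, the build BDGP5 and CASAVA (1.7.0.3 and 1.7.0.2) appear in the submitters' processing notes without their roles. Threshold and duplicate handling were not given in the sources used here, nor was any pooling of replicates. The scale of the score deposited by the authors is unknown, and it was used only within this list. Depth is unknown.

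Gaps were counted edge to edge between all listed peaks of an arm. Quartiles, medians and shares were computed with Python 3.11.15, numpy 2.4.6, scipy 1.17.1 and pandas 2.3.3, and figures with matplotlib 3.10.9. Arm length was taken as the span of its listed peaks. Medians have 95% order-statistic intervals and shares exact Clopper-Pearson ones, for counting error only. The rule was tested on simulated data. Peaks named by rule were the 10 strongest, widest and most distant, the strongest of each arm, the 5 weakest, and 5 on each side of the 20 kb limit. Members and lists were chosen with earlier results of these data known. Gap, width and score limits, the distance measure, merging and arm ends were varied. Peaks of 2000 bp or more and sequences outside the arms were left out by the rule.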

Additional observations from a re-analysis of the deposited data

Results flagged for a closer look

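Peaks that met the same limits of spacing and width were also listed outside the 6 arms, in sequence that the comparisons above do not use. Their numbers are given where they exceeded 3, a limit for listing that tests nothing. On the arms 5.12% of peaks met these limits. Uextra, a collection of unplaced sequence, held 195 among its 384 peaks, and the unplaced collection U held 8 of 26. The heterochromatic sequences 2RHet, 3LHet and 3RHet held 9 of 15, 5 of 21 and 4 of 9. In a collection of unplaced pieces the distance between listed positions need not be a distance on a chromosome.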

How the results depend on the processing

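No paired analysis was possible because the only file is a joint list without library values, nor could a replicate be left out. Of 96 alternatives, 68 stayed within the interval of the reported value, or within 1.5 times of a count. With a minimum gap of 10, 30 or 50 kb the isolated peaks numbered 882, 180 and 73. Their share of arm peaks was 12.1% at 10 kb, 7.45% at 15 kb, 2.46% at 30 kb and 1.00% at 50 kb. These shifts in number and in share of arm peaks follow from the limit itself, and the median score stayed between 29.2 and 30.1. At 50 kb X held 23.3% of the 73 isolated peaks, against 16.7% at 30 kb and 16.1% at 10 kb. That shift rests on few peaks and its cause was not tested. With a width limit of 1000 bp the share was 3.85%, the median score 24.5, the median width 511 bp, the score ratio 0.850 to all other arm peaks and 1.39 to those under the same limit, and the width ratio 1.09. When only peaks above the median score were kept, these values were 14.7%, 53.2, 977 bp, 0.945, 1.04 and 0.856. Merging peaks within 1 kb gave a share of 7.53%, score ratios of 0.826 and 1.01 and a width ratio of 0.851. Leaving out peaks scoring below 10 gave a share of 5.91% and a median width of 714.5 bp. Alternatives for the share of narrow isolated peaks scoring 100 or more were chosen after seeing the data: it was 1.48% with a minimum gap of 30 kb (others 1.17%) and 1.48% with a width limit of 700 bp (others 0.30%). Apart from the shifts set by a limit on gap, width or score, the cause was not tested. Unknown depth limits every statement that a stretch holds no peak, since a weak site may have been missed.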

Other observations

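A further 22 arm peaks had gaps of at least 20 kb on both sides but were 2000 bp wide or more. They were 3.41% of the 646 arm peaks of that width, whereas isolated peaks were 5.62% of the 6657 narrower ones. Their median score was 76.4 and their median width 2489 bp. Arm 3R held 10 of them, 3L 5, 2R 3, X 2, and 2L and chromosome 4 1 each. The 4 strongest were all on 3R. At 3298412 to 3301133 the score was 308.07 with gaps of 108 kb and 54.8 kb, and the 108 kb gap began at an isolated peak with a score of 24.5. The next were at 20381127 to 20383188 (score 242.53), 10919448 to 10921735 (228.5) and 17121330 to 17124006 (163.75). The most distant, at 1832328 to 1836063 on 3R, was 3736 bp wide, scored 107.75 and had 144 kb and 160 kb free of peaks beside it.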
